A study of Mus musculus with 13 samples.

Results

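The genes described here are 35 mouse genes of the lysosome, made up of hydrolases, membrane proteins, the soluble lipid-binding proteins Psap, Gm2a and Npc2, and Tfeb, a regulator of lysosomal genes. They were picked by symbol from a list of names among the 53392 genes of the RNaseq table. All 35 had counts in all 13 mice, and all 35 were among the 14317 genes that passed the filter on low counts. Asah1, which encodes acid ceramidase (ASAH), is a lysosomal hydrolase too, but it is the gene induced in these mice and is not among the 35.

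Lysosomes are acidic organelles in which hydrolases break down proteins, glycosaminoglycans, glycogen, sterol esters and sphingolipids. Acid ceramidase acts near the end of sphingolipid breakdown and splits ceramide into sphingosine and a fatty acid. Many lysosomal genes carry a short promoter element that is bound by TFEB and its relatives, and their transcripts can rise together when lysosomes are under stress.

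The samples were whole livers of 13 female mice, 8 to 14 weeks old, which received 28% of their calories as ethanol in a Lieber-DeCarli liquid diet for 4 weeks. All mice carried Albumin-Cre, active in hepatocytes, and a Rosa26 rtTA allele that is switched on by Cre, and ASAH+ mice also carried a TRE-driven ASAH1 transgene that responds to rtTA with doxycycline (Dox, 200 mg/l in the diet). The groups were 4 ASAH− littermates on Etoh-Dox, which have no transgene, 5 ASAH+ mice on Etoh-Dox, in which the transgene is induced, and 4 ASAH+ mice on Etoh without Dox. For ASAH+ mice, sample titles and sample descriptions disagree on which mice received Dox, and the descriptions, with the induction labels, were used.

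Asah1 fitted the descriptions in each library. It was 48.7, 40.0, 53.7 and 55.0 CPM (counts scaled for library size with edgeR's TMM factors) in the ASAH− Etoh-Dox mice, 10314, 9668, 15134, 12725 and 15935 CPM in the ASAH+ Etoh-Dox mice, and 46.8, 44.2, 46.8 and 48.3 CPM in the ASAH+ Etoh mice. The induced mice lay far above all others, with a log2 fold change of 8.01 (SE 0.20, n = 5 and 4; edgeR adjusted p = 1.24e-11) over ASAH− Etoh-Dox and 8.10 (SE 0.21, n = 5 and 4; edgeR adjusted p = 1.13e-11) over ASAH+ Etoh. Between the groups without induction the log2 fold change of Asah1 was 0.09 (SE 0.15, n = 4 and 4; edgeR adjusted p = 0.906). Library totals ran from 17819486 to 35358711 counts, with group medians of 25581976.5 in ASAH− Etoh-Dox, 26316303 in ASAH+ Etoh-Dox and 21948031 in ASAH+ Etoh.

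The 35 genes differed widely in level. Per kilobase of merged exons, and averaged over the 13 mice, the highest level was that of Lamp1, an abundant glycoprotein of the limiting membrane, at 236 CPM per kb. It was followed by Psap, the precursor of the saposins that present sphingolipids to their hydrolases, at 212 CPM per kb. The cathepsins Ctsz, Ctsb, Ctsd and Ctsl had levels of 137, 134, 125 and 95.9 CPM per kb. The lowest levels were those of the heparan sulfatase Sgsh at 1.46 CPM per kb and of Tfeb at 0.897 CPM per kb.

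On the same scale, Asah1 in the induced mice exceeded the sum of the 35 genes. The ratio of the Asah1 level to the summed level of the 35, both in CPM per kb, was 1.83, 2.04, 3.41, 2.77 and 3.51 in the 5 ASAH+ Etoh-Dox mice. In these mice the Asah1 level was 10.5 to 20.3 times that of Lamp1, the highest of the 35 in each mouse, and Asah1 took 1.02 to 1.58% of all counts. The ratio to the summed level was 0.0080 to 0.0131 in ASAH− Etoh-Dox and 0.0095 to 0.0102 in ASAH+ Etoh.

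**Figure D1:**
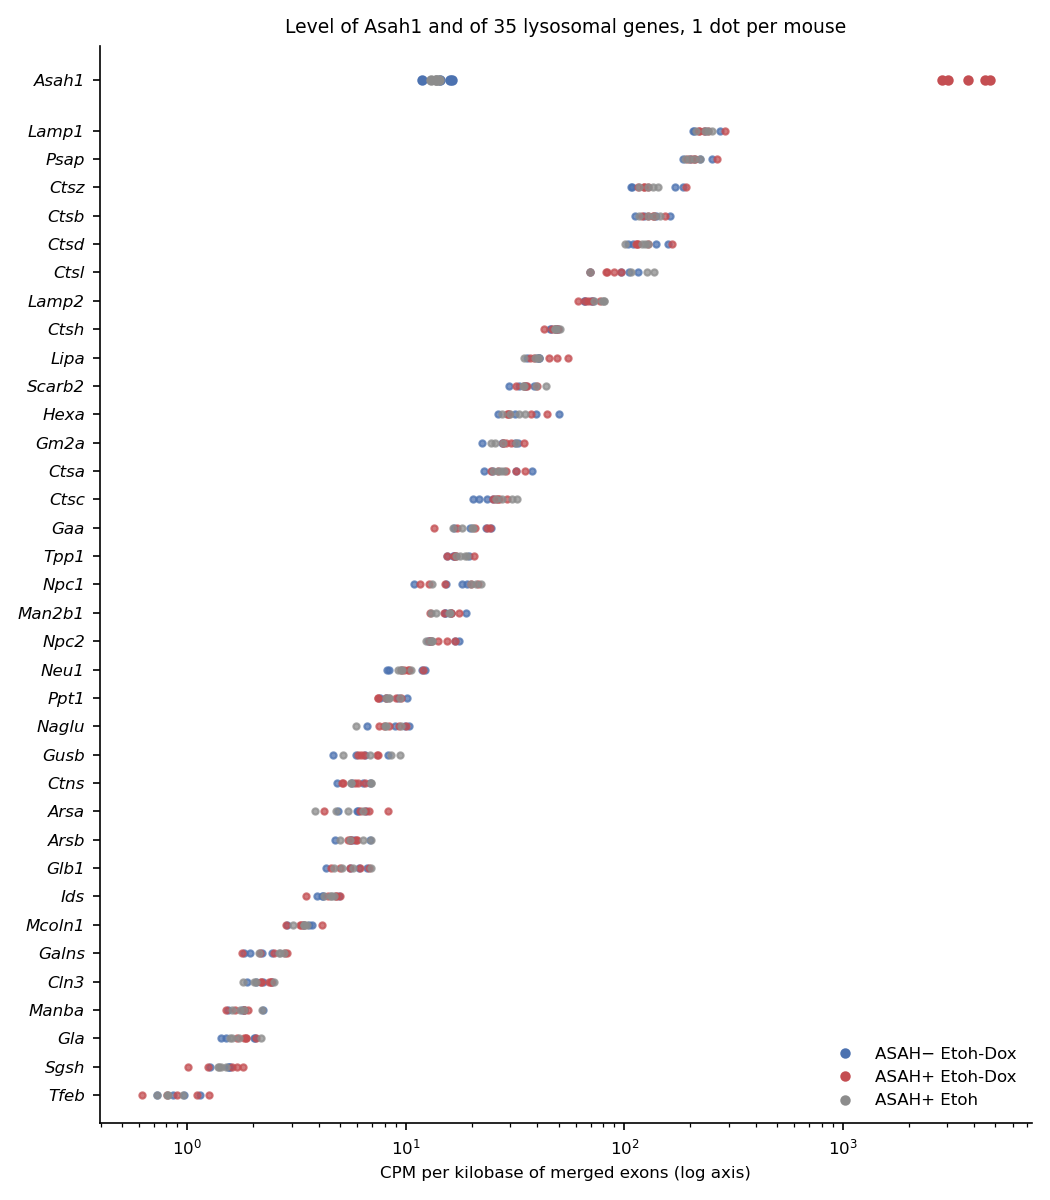
Level of Asah1 and of the 35 lysosomal genes in CPM per kilobase of merged exons (log axis), with 1 dot per mouse coloured by group. Asah1 in the ASAH+ Etoh-Dox mice lies to the right of every lysosomal gene, while the groups lie over each other for most of the 35.

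The comparison of ASAH+ with ASAH− mice on Etoh-Dox asked whether other lysosomal transcripts differ when the Asah1 transcript is in large excess. None of the 35 genes passed the edgeR test at an adjusted p under 0.1 (lowest adjusted p 0.9997), against 2 of all 14317 genes (0.014%, Asah1 and Sod1), and DESeq2 called 0 of the 35, against 12 of all 15808 genes with an adjusted p from it. At an unadjusted p under 0.05 there was 1 of 35 with edgeR (2.86%) and 1 with DESeq2, in both cases Ctsc, against 2.86% of all genes with edgeR and 1.76% of 28532 genes with a p from DESeq2. Ctsc was also the 1 gene of the 35 whose groups did not overlap, against 0.887% of all genes. Of the 35, 19 had a log2 fold change above 0 and 16 below 0, and all 35 lay between -0.20 (Ctsl) and 0.24 (Ctsc), with a median of 0.01 beside -0.00 for all genes.

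The intervals of these differences were narrow. The median SE of the 35 log2 fold changes was 0.12, and their 95% confidence intervals reached from -0.60 (Ctsl) to 0.53 (Galns). For 31 of the 35 genes the whole interval lay within 0.5 of 0 on the log2 scale, a factor of 1.41, and for all 35 it lay within 1. The median of the 35 was -0.04 without ASAH− Etoh-Dox replicate 1, -0.02 without ASAH− Etoh-Dox replicate 4 and -0.04 without ASAH+ Etoh-Dox replicate 1, and it was 0.08 without ASAH− Etoh-Dox replicate 3. The count at an unadjusted p under 0.05 was 0 without ASAH− Etoh-Dox replicate 2 and 2 without ASAH+ Etoh-Dox replicate 1, 2 or 3. Over all genes tested it was 387, 494, 625 and 452 in the same order, against 409 with all mice. With a mouse left out, the number of the 35 above 0 ran from 12 (without ASAH+ Etoh-Dox replicate 1) to 27 (without ASAH− Etoh-Dox replicate 3).

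The comparison of ASAH+ mice with and without Dox asked the same within the transgenic genotype, where Dox itself and induction cannot be told apart. It shares the ASAH+ Etoh-Dox mice with the comparison above. With edgeR 0 of the 35 genes passed the adjusted threshold (lowest adjusted p 0.630) against 0.014% of all genes, and 1 of 35 (Lamp2, lower with Dox) had an unadjusted p under 0.05 against 7.29% of all genes. DESeq2 gave an adjusted p for 19 of the 35 and called 0 of these, against 98 of all 1982 genes with an adjusted p. At an unadjusted p under 0.05 DESeq2 had 2 of 35 (Lamp2 and Ctsl), against 4.31% of 28532 genes with a p. The groups overlapped for all 35 genes, whereas they did not for 2.58% of all genes. The log2 fold changes ran from -0.39 (Ctsl) to 0.32 (Arsa), with 21 above 0 and 14 below 0 and a median of 0.03 beside 0.01 for all genes.

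The 95% intervals in this comparison reached from -0.78 (Ctsl) to 0.70 (Arsa), and for 30 of the 35 genes the interval lay within 0.5 of 0. Without ASAH+ Etoh-Dox replicate 1 the median of the 35 was -0.03, and 13 of the 35 lay above 0. The count at an unadjusted p under 0.05 was 0 without ASAH+ Etoh-Dox replicate 4 or ASAH+ Etoh replicate 1 or 3. It was 2 without ASAH− Etoh-Dox replicate 4, ASAH+ Etoh-Dox replicate 1, 2 or 3, or ASAH+ Etoh replicate 2 or 4. Over all genes tested it was 856, 759 and 928 in the settings with 0. In those with 2 it was 983 to 1174, against 1044 with all mice.

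Between the groups without induction, ASAH− Etoh-Dox and ASAH+ Etoh, genotype and Dox differ together and cannot be told apart. This comparison shows how far the 35 genes lie apart when Asah1 does not. With edgeR 0 of 35 passed the adjusted threshold (lowest adjusted p 0.389), against 0.014% of all genes (mt-Co2 and mt-Co3), and 2 of 35 had an unadjusted p under 0.05 (Ctsc and Lamp2, both lower in ASAH− Etoh-Dox), against 9.19% of all genes. The same 2 genes were those whose groups did not overlap, against 5.5% of all genes. DESeq2 gave an adjusted p for 33 of the 35 and called 1 of these, Ctsc, against 149 of all 8625 genes with an adjusted p. At an unadjusted p under 0.05 it had 2 of 35 (Ctsc and Lamp2), against 5.23% of 28532 genes with a p.

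The log2 fold changes between these groups ran from -0.37 (Ctsc) to 0.23 (Hexa), 20 above 0 and 15 below 0, with a median of 0.02 beside 0.02 for all genes. Their 95% intervals reached from -0.75 (Npc1) to 0.63 (Hexa), and 24 of the 35 lay within 0.5 of 0. The median of the 35 was at or below 0.00 without ASAH− Etoh-Dox replicate 2 or 3 or ASAH+ Etoh replicate 2 or 3, lowest at -0.03 without ASAH− Etoh-Dox replicate 3, and it was 0.07 without ASAH− Etoh-Dox replicate 4. The count at an unadjusted p under 0.05 was 1 without ASAH− Etoh-Dox replicate 2 or ASAH+ Etoh replicate 1 or 4, and 4 without ASAH+ Etoh replicate 2. Over all genes tested it was 1027, 1073, 1383 and 1062 in the same order, against 1316 with all mice. With a mouse left out, the number of the 35 above 0 ran from 10 (without ASAH− Etoh-Dox replicate 3) to 24 (without ASAH− Etoh-Dox replicate 4).

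**Figure D2:**
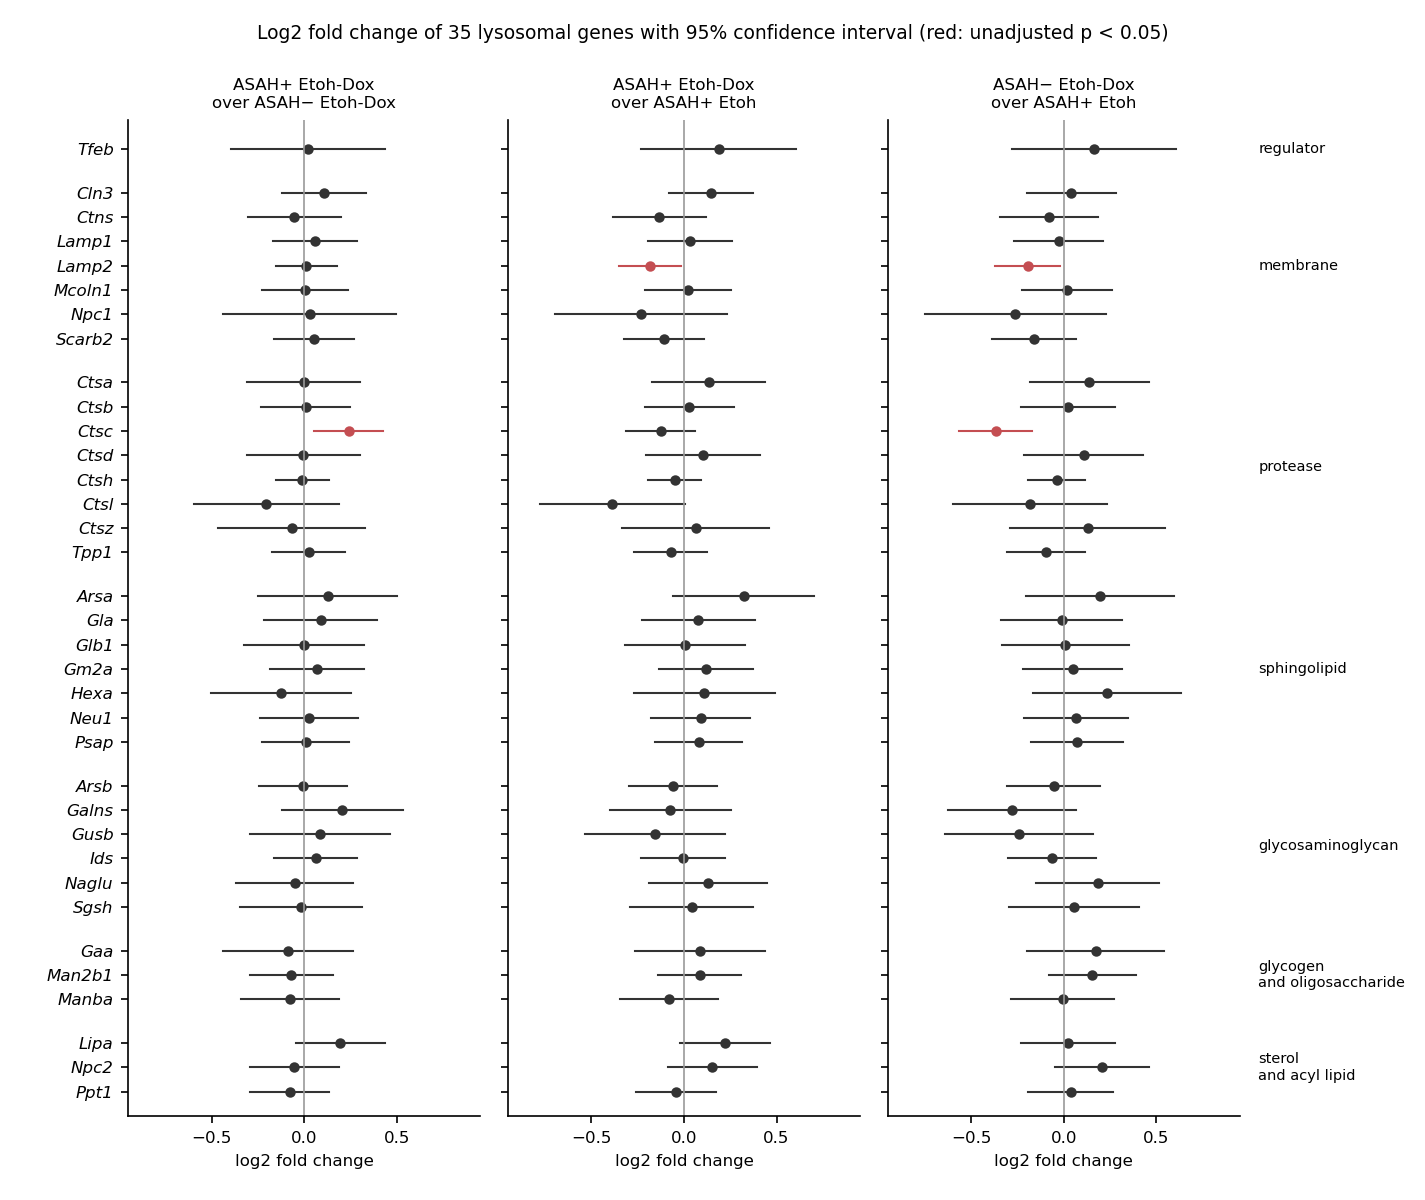
Log2 fold change of each of the 35 genes by role (dots) with its 95% confidence interval (lines) in the 3 comparisons, with genes at an unadjusted edgeR p under 0.05 in red. Ctsc is red in the left and right panels and Lamp2 in the middle and right panels, and all intervals lie within 1 of 0.

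Tfeb, the transcription factor that activates lysosomal genes, was 4.11, 6.47, 4.86 and 5.47 CPM in the ASAH− Etoh-Dox mice, 7.08, 5.08, 3.51, 4.57 and 6.29 CPM in the ASAH+ Etoh-Dox mice, and 4.61, 4.56, 5.38 and 4.11 CPM in the ASAH+ Etoh mice. The induced mice held both the highest and the lowest value, and all groups overlapped. The log2 fold change of ASAH+ over ASAH− on Etoh-Dox was 0.02 (95% interval -0.39 to 0.44; edgeR adjusted p = 0.9997, exact permutation p = 1). It was 0.19 for ASAH+ Etoh-Dox over ASAH+ Etoh (SE 0.20; edgeR adjusted p = 0.865) and 0.17 for ASAH− Etoh-Dox over ASAH+ Etoh (SE 0.21; edgeR adjusted p = 0.856). The sign of the first of these values turned to -0.11 without ASAH+ Etoh-Dox replicate 1 and was also below 0 without ASAH− Etoh-Dox replicate 1 or 3 or ASAH+ Etoh-Dox replicate 5. Over the 22 alternatives the 0.19 ran from 0.05 to 0.30 and the 0.17 from 0.05 to 0.25.

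Among the 7 membrane proteins, Lamp1 and Lamp2 are the main glycoproteins of the lysosomal membrane. Lamp1 was 559, 627, 731 and 553 CPM in the ASAH− Etoh-Dox mice, 775, 644, 590, 588 and 620 CPM in the ASAH+ Etoh-Dox mice, and 645, 571, 626 and 674 CPM in the ASAH+ Etoh mice. The highest mice were ASAH+ Etoh-Dox replicate 1 and ASAH− Etoh-Dox replicate 3, and the groups overlapped in each comparison. Lamp1 had log2 fold changes of 0.06, 0.03 and -0.03 in the order of the comparisons above (SE 0.11 for each; lowest edgeR adjusted p = 0.968). Each changed sign when a single mouse was left out, the 0.06 and 0.03 without ASAH+ Etoh-Dox replicate 1 (-0.01 and -0.05), the 0.03 also without ASAH+ Etoh replicate 2 (-0.01), and the -0.03 without ASAH− Etoh-Dox replicate 4 (0.02).

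Lamp2 (ENSMUSG00000016534, GRCm38 chrX:38401357-38456454), which also serves as a receptor in chaperone-mediated autophagy, was 669, 622, 684 and 631 CPM in the ASAH− Etoh-Dox mice, 632, 589, 736, 651 and 676 CPM in the ASAH+ Etoh-Dox mice, and 769, 693, 753 and 771 CPM in the ASAH+ Etoh mice. The ASAH+ Etoh mice were all above the ASAH− Etoh-Dox mice and above 4 of the 5 ASAH+ Etoh-Dox mice, and the groups on Dox overlapped. Lamp2 had a log2 fold change of -0.18 (SE 0.08, n = 5 and 4) for ASAH+ Etoh-Dox over ASAH+ Etoh, with an edgeR adjusted p of 0.630 and an exact permutation p of 0.0317. For ASAH− Etoh-Dox over ASAH+ Etoh it was -0.20 (SE 0.08, n = 4 and 4), with an edgeR adjusted p of 0.498 and an exact permutation p of 0.0286, the smallest that 4 against 4 mice can give. Between the groups on Dox it was 0.01 (95% interval -0.15 to 0.18), and it was below 0 without ASAH− Etoh-Dox replicate 2 (-0.01) or 4 (-0.00) or ASAH+ Etoh-Dox replicate 3 (-0.02). Neither difference passed the adjusted threshold.

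The other 5 membrane proteins were the cholesterol exporter Npc1, the enzyme receptor Scarb2, the cation channel Mcoln1, the cystine exporter Ctns and Cln3. Their log2 fold changes ran from -0.05 (Ctns) to 0.11 (Cln3) for ASAH+ over ASAH− on Etoh-Dox. They ran from -0.23 (Npc1) to 0.14 (Cln3) for ASAH+ Etoh-Dox over ASAH+ Etoh, and from -0.26 (Npc1) to 0.04 (Cln3) for ASAH− Etoh-Dox over ASAH+ Etoh. Npc1 had the largest SD between mice of a group among the 35 genes, 0.37 on the log2 scale.

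Of the 8 proteases, Ctsc (ENSMUSG00000030560, GRCm38 chr7:88278085-88310888), a dipeptidyl peptidase that activates serine proteases of immune cells, was the only one with groups that did not overlap. Ctsc was 136, 117, 145 and 126 CPM in the ASAH− Etoh-Dox mice, 146, 153, 151, 169 and 155 CPM in the ASAH+ Etoh-Dox mice, and 160, 187, 178 and 151 CPM in the ASAH+ Etoh mice. The ASAH− mice were the 4 lowest of the 13, although the highest of them (145.2) lay just under the lowest induced mouse (145.7), and the ASAH+ groups overlapped. ASAH+ over ASAH− on Etoh-Dox gave a log2 fold change of 0.24 (SE 0.09, 95% interval 0.05 to 0.43, n = 5 and 4), with an edgeR adjusted p of 0.9997 and an exact permutation p of 0.00794, the smallest that 5 against 4 mice can give.

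For ASAH− Etoh-Dox over ASAH+ Etoh the log2 fold change of Ctsc was -0.37 (SE 0.09, 95% interval -0.56 to -0.17, n = 4 and 4), with an edgeR adjusted p of 0.389 and an exact permutation p of 0.0286. DESeq2 gave -0.39 with an adjusted p of 0.0192, and over all 22 alternatives the adjusted p ran from 0.0192 to 0.666. Ctsc gave -0.13 for ASAH+ Etoh-Dox over ASAH+ Etoh (SE 0.09; edgeR adjusted p = 0.780, exact permutation p = 0.151). The comparisons in which the groups did not overlap share the 4 ASAH− mice. The exact tests of single genes were 36 in number and their p-values are not adjusted. Ctsc was among the genes picked for a small edgeR p or a large change, so its exact p is no separate test of the difference.

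Ctsb, an abundant cysteine protease, was 743, 848, 975 and 675 CPM in the ASAH− Etoh-Dox mice, 931, 824, 725, 817 and 776 CPM in the ASAH+ Etoh-Dox mice, and 830, 704, 778 and 883 CPM in the ASAH+ Etoh mice. The groups overlapped throughout, with log2 fold changes of 0.01, 0.03 and 0.02 in the same order (SE 0.11, 0.11 and 0.12; lowest edgeR adjusted p = 0.976). The interval of the first was -0.23 to 0.25. Leaving out a single mouse turned each to below 0, the 0.01 without ASAH− Etoh-Dox replicate 1 or 4 or ASAH+ Etoh-Dox replicate 1 (lowest -0.07), the 0.03 without ASAH+ Etoh-Dox replicate 1 or ASAH+ Etoh replicate 2 (lowest -0.03), and the 0.02 without ASAH− Etoh-Dox replicate 2 or 3 or ASAH+ Etoh replicate 2 or 3 (lowest -0.08).

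Ctsl, another cysteine protease, was 685, 629, 746 and 453 CPM in the ASAH− Etoh-Dox mice, 582, 623, 538, 533 and 450 CPM in the ASAH+ Etoh-Dox mice, and 694, 451, 825 and 884 CPM in the ASAH+ Etoh mice. The spread within the groups was wide, and ASAH+ Etoh replicate 2 and ASAH− Etoh-Dox replicate 4 were as low as the lowest induced mouse. The log2 fold changes were -0.20 (SE 0.18), -0.39 (SE 0.18) and -0.18 (SE 0.19), with edgeR adjusted p-values of 0.9997, 0.680 and 0.824 and exact permutation p-values of 0.286, 0.151 and 0.514. The other 5 proteases were the aspartic protease Ctsd, the carboxypeptidases Ctsa and Ctsz, the aminopeptidase Ctsh and the tripeptidyl peptidase Tpp1. They ran from -0.07 (Ctsz) to 0.02 (Tpp1), from -0.07 (Tpp1) to 0.13 (Ctsa) and from -0.10 (Tpp1) to 0.14 (Ctsa) in the 3 comparisons. Ctsh had the smallest SD between mice of a group among the 35, 0.07 on the log2 scale.

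The 7 genes of sphingolipid breakdown stand closest to acid ceramidase in function. They comprise Psap, the ganglioside activator Gm2a, the hexosaminidase Hexa, the galactosidases Gla and Glb1, the sialidase Neu1 and the sulfatidase Arsa. With edgeR 0 of 7 passed the adjusted threshold in each comparison, against 0.014% of all genes. At an unadjusted p under 0.05 there were 0 of 7 with edgeR or DESeq2. Of all genes, 2.86, 7.29 and 9.19% were under it with edgeR in the 3 comparisons, and 1.76, 4.31 and 5.23% with DESeq2. For 7 genes a count of 0 lies near these shares. For ASAH+ over ASAH− on Etoh-Dox 5 lay above 0 and 2 below 0 (median 0.03), between -0.12 (Hexa) and 0.13 (Arsa). Of these, only Gla and Arsa kept their sign under all alternatives, and Glb1 changed it in 13 of 22. Left out, ASAH− Etoh-Dox replicate 1 or ASAH+ Etoh-Dox replicate 1 turned Psap and Neu1, ASAH− Etoh-Dox replicate 4 turned Psap, Gm2a and Neu1, and ASAH− Etoh-Dox replicate 3 turned Hexa. All 7 lay above 0 for ASAH+ Etoh-Dox over ASAH+ Etoh, between 0.01 (Glb1) and 0.32 (Arsa), with a median of 0.09. Without ASAH+ Etoh-Dox replicate 1, Psap, Hexa and Glb1 were below 0 there. Glb1 was also below 0 with DESeq2, with DESeq2's size factors, with Asah1 left out of the totals, and without ASAH− Etoh-Dox replicate 1, ASAH+ Etoh-Dox replicate 4, or ASAH+ Etoh replicate 1 or 2. For ASAH− Etoh-Dox over ASAH+ Etoh, where Asah1 is not induced in either group, 6 lay above 0 and 1 below 0 (median 0.06). Only Hexa and Arsa kept their sign there under all alternatives, and Glb1 changed it in 12 of 22. ASAH− Etoh-Dox replicate 2, left out, turned Gm2a, Gla and Neu1, replicate 3 turned Psap, Gm2a and Neu1, replicate 4 turned Gla, ASAH+ Etoh replicate 2 or 3 turned Gm2a, and ASAH+ Etoh replicate 4 turned Gla.

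Arsa, which removes sulfate from sulfatides, was 21.9, 24.2, 22.2 and 17.9 CPM in the ASAH− Etoh-Dox mice, 30.5, 22.7, 15.5, 24.0 and 24.9 CPM in the ASAH+ Etoh-Dox mice, and 14.1, 17.6, 20.1 and 23.5 CPM in the ASAH+ Etoh mice. Of the 5 induced mice, 3 were above all ASAH+ Etoh mice and replicate 3 was among the lowest of all. Arsa had log2 fold changes of 0.13, 0.32 and 0.20 (SE 0.18, 0.18 and 0.19), with edgeR adjusted p-values of 0.9997, 0.713 and 0.798 and exact permutation p-values of 0.659, 0.198 and 0.286. Over the 22 alternatives these fold changes ran from 0.02 to 0.25, from 0.20 to 0.44 and from 0.08 to 0.30. Hexa, which removes hexosamine from gangliosides, was 52.6, 78.6, 100.3 and 63.2 CPM in the ASAH− Etoh-Dox mice, 88.3, 74.6, 58.5, 57.7 and 59.1 CPM in the ASAH+ Etoh-Dox mice, and 66.0, 55.0, 59.8 and 70.2 CPM in the ASAH+ Etoh mice. ASAH− Etoh-Dox held both the lowest and the highest mouse. Hexa had log2 fold changes of -0.12, 0.11 and 0.23 (SE 0.18, 0.18 and 0.19; lowest edgeR adjusted p = 0.748, lowest exact permutation p = 0.429).

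The 6 genes of glycosaminoglycan breakdown were the sulfatases Galns, Arsb, Ids and Sgsh, the glucuronidase Gusb and the glucosaminidase Naglu. Galns, which acts on keratan sulfate and chondroitin sulfate, was 5.11, 5.82, 6.45 and 4.79 CPM in the ASAH− Etoh-Dox mice, 7.44, 5.69, 4.70, 7.54 and 6.59 CPM in the ASAH+ Etoh-Dox mice, and 7.005, 5.66, 6.96 and 7.34 CPM in the ASAH+ Etoh mice. Of the induced mice 3 were above all ASAH− mice and replicate 3 was below them. The log2 fold changes were 0.21, -0.07 and -0.28 (SE 0.15, 0.15 and 0.16), with edgeR adjusted p-values of 0.9997, 0.947 and 0.638 and exact permutation p-values of 0.278, 0.635 and 0.0857. The other 5 genes ran from -0.05 (Naglu) to 0.09 (Gusb), from -0.16 (Gusb) to 0.13 (Naglu), and from -0.24 (Gusb) to 0.18 (Naglu).

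The glucosidase Gaa, which degrades glycogen, and the mannosidases Man2b1 and Manba, which degrade oligosaccharides, had log2 fold changes of -0.09, -0.07 and -0.08 for ASAH+ over ASAH− on Etoh-Dox. They were 0.09, 0.08 and -0.08 for ASAH+ Etoh-Dox over ASAH+ Etoh and 0.17, 0.15 and -0.01 for ASAH− Etoh-Dox over ASAH+ Etoh. In the first comparison Gaa changed sign with the replicate number as a block and without ASAH+ Etoh-Dox replicate 5. Man2b1 did so there without ASAH− Etoh-Dox replicate 3, and Manba without ASAH− Etoh-Dox replicate 4. In the middle comparison Gaa turned without ASAH+ Etoh-Dox replicate 1 and Manba without ASAH+ Etoh replicate 2. In the last, Manba changed sign in 4 of 22 alternatives. With edgeR and DESeq2, 0 of 3 had an unadjusted p under 0.05 in any comparison, beside 2.86, 7.29 and 9.19% of all genes with edgeR.

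Lipa, the acid lipase that hydrolyses cholesteryl esters and triglycerides, was 277, 243, 277 and 270.3 CPM in the ASAH− Etoh-Dox mice, 251, 261, 376, 335 and 305 CPM in the ASAH+ Etoh-Dox mice, and 263, 277, 235 and 273 CPM in the ASAH+ Etoh mice. The 3 highest of all mice were ASAH+ Etoh-Dox replicates 3, 4 and 5, while replicates 1 and 2 lay within the range of both other groups. The log2 fold change was 0.20 (SE 0.11) over ASAH− Etoh-Dox and 0.22 (SE 0.11) over ASAH+ Etoh, with edgeR adjusted p-values of 0.9997 and 0.704 and exact permutation p-values of 0.214 and 0.167, and it was 0.02 between the groups without induction. Npc2, which hands cholesterol to Npc1, was 68.3, 91.5, 95.3 and 69.8 CPM in the ASAH− Etoh-Dox mice, 90.8, 84.2, 76.2, 71.1 and 69.4 CPM in the ASAH+ Etoh-Dox mice, and 71.2, 67.3, 71.96 and 71.4 CPM in the ASAH+ Etoh mice. The mice on Dox spread widely and the ASAH+ Etoh mice little. Npc2 had log2 fold changes of -0.05, 0.15 and 0.21 (SE 0.11, 0.11 and 0.12; lowest edgeR adjusted p = 0.638, lowest exact permutation p = 0.175), and those of the thioesterase Ppt1 were -0.08, -0.04 and 0.04. The -0.05 of Npc2 was above 0 with the replicate number as a block and without ASAH− Etoh-Dox replicate 2 or 3 (highest 0.03). For Ppt1, the -0.04 changed sign without ASAH+ Etoh replicate 1 and the 0.04 without ASAH− Etoh-Dox replicate 3.

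**Figure D3:**
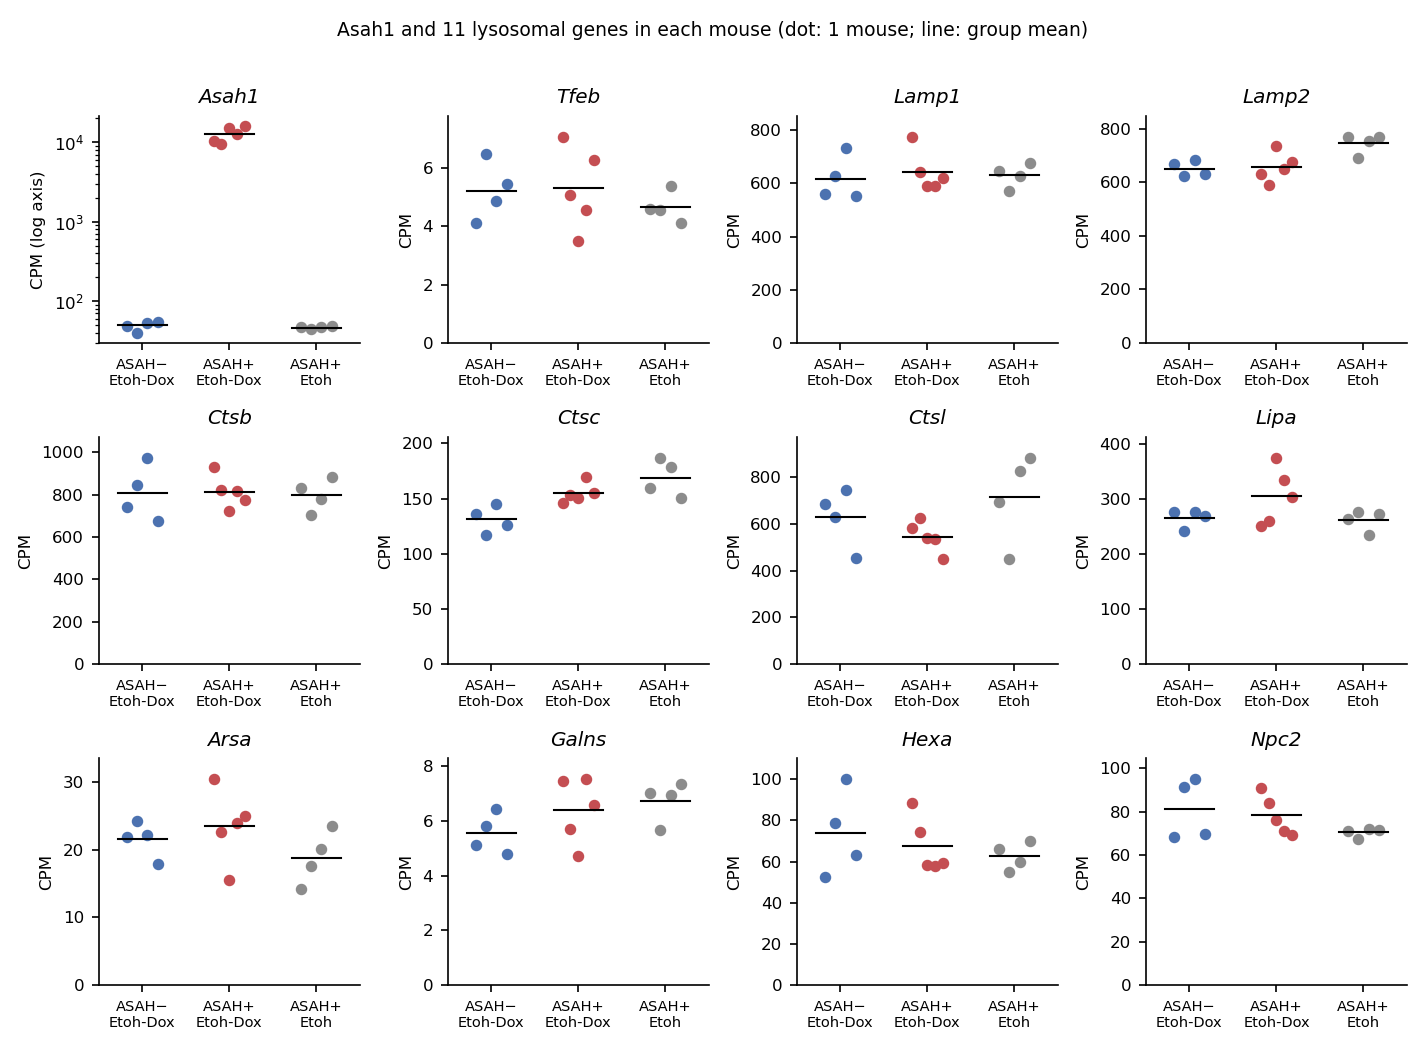
Asah1 (log axis) and 11 of the 35 genes in CPM (axes from 0), with 1 dot per mouse and a line at each group mean. Asah1 separates the ASAH+ Etoh-Dox mice from all others. Ctsc is lowest in the ASAH− Etoh-Dox mice, while its ASAH+ groups overlap. The group mean of Lamp2 is highest in ASAH+ Etoh, although ASAH+ Etoh-Dox replicate 3 lies above ASAH+ Etoh replicate 2. In the other panels all groups overlap.

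Within the groups many of the lysosomal genes varied together from mouse to mouse. For each gene, the deviations of log2 CPM from the group means were set against the mean deviation of the other 34 genes. Over the 13 mice, Spearman's rho had a median of 0.670 and was above 0.5 for 23 of the 35 genes, with the highest value for Ctsb (0.945). It was below 0 for 8 genes, Scarb2 (-0.522), Lipa, Ids, Manba, Ctsc, Sgsh, Ctsh and Npc1, and these correlations describe 13 mice that share their group means and scaling. Of the 14282 other genes tested, 1855 (13%) had a rho above 0.5 with the mean of the 35, and the median rho was 0.0165. The median SD between mice of a group was 0.18 on the log2 scale for the 35 genes and 0.24 for all genes tested.

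The same mice were high for most of the genes. ASAH− Etoh-Dox replicate 3 had the highest value of its group for 24 of the 35 genes, ASAH+ Etoh-Dox replicate 1 for 22 and ASAH+ Etoh replicate 4 for 19. The lowest value of the group fell to ASAH− Etoh-Dox replicate 4 for 18 genes, to ASAH+ Etoh-Dox replicate 3 for 18 and to ASAH+ Etoh replicate 2 for 21. Summed over the 35 genes, the level was 5473, 6007, 6684 and 5229 CPM in the ASAH− Etoh-Dox mice, 6594, 5827, 5562, 5714 and 5587 CPM in the ASAH+ Etoh-Dox mice, and 6113, 5468, 6109 and 6337 CPM in the ASAH+ Etoh mice. The group means of this sum were 5848 (SD 645, n = 4), 5857 (SD 426, n = 5) and 6007 (SD 375, n = 4), so that the groups differed by less than the mice within them.

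**Figure D4:**
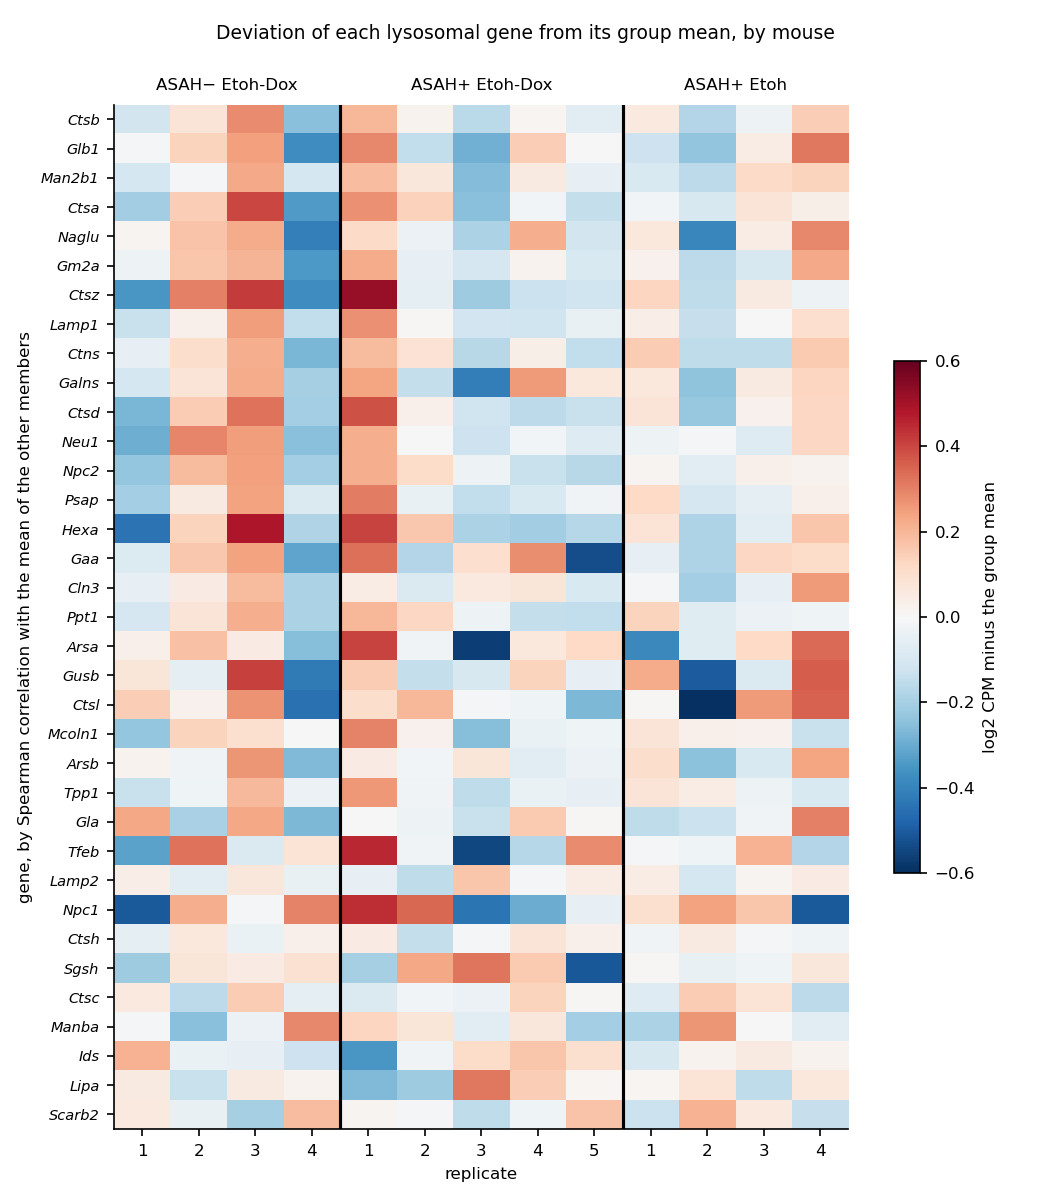
Deviation of log2 CPM from the group mean for each of the 35 genes (lines of the map) in each mouse (columns, by group and replicate), with genes in the order of their correlation with the others. The upper genes are jointly high in ASAH− Etoh-Dox replicate 3, ASAH+ Etoh-Dox replicate 1 and ASAH+ Etoh replicate 4, and the bottom genes are not.

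Whole liver contains macrophages, which are rich in lysosomes, and in bulk RNA fewer cells of a type and less RNA per cell cannot be told apart. All 22 of 22 macrophage markers had counts in every mouse, and the most abundant was Cd5l. Their summed level was 695, 721, 1401 and 853 CPM in the ASAH− Etoh-Dox mice, 983, 986, 516, 789.7 and 513 CPM in the ASAH+ Etoh-Dox mice, and 670, 522, 581 and 654 CPM in the ASAH+ Etoh mice. The mouse with the highest sum of markers, ASAH− Etoh-Dox replicate 3, was also the highest for the 35 genes, and ASAH+ Etoh-Dox replicates 3 and 5, the lowest for the markers, were the lowest of their group for the 35. ASAH− Etoh-Dox replicate 4, however, had the lowest sum of the 35 genes of all mice with the next highest marker sum of its group, and the ASAH+ Etoh mice had the lowest group mean of the markers (607 CPM) and the highest of the 35 genes (6007 CPM). The median log2 fold change of the markers was -0.24 for ASAH+ over ASAH− on Etoh-Dox, 0.35 for ASAH+ Etoh-Dox over ASAH+ Etoh and 0.56 for ASAH− Etoh-Dox over ASAH+ Etoh. EdgeR called 0 of 22 in each comparison, and DESeq2 called 0 of the 22, 4 and 17 that had an adjusted p from it. In the same order 0, 0 and 12 had an unadjusted p under 0.05 with edgeR (0, 2 and 12 with DESeq2), beside 2.86, 7.29 and 9.19% of all genes with edgeR. The part of the macrophages in the levels of the lysosomal genes was not tested.

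**Figure D5:**
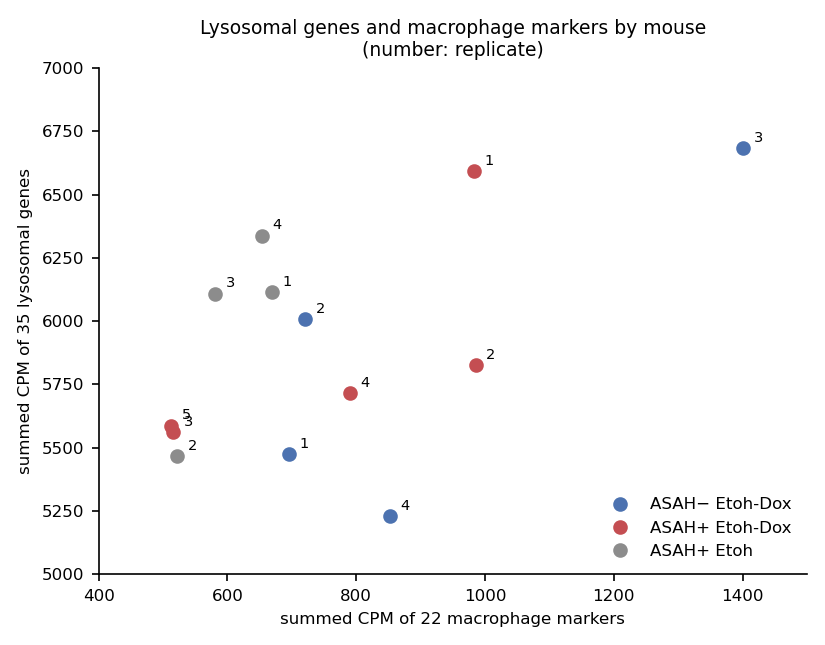
Summed CPM of the 35 lysosomal genes against the summed CPM of 22 macrophage markers, with 1 dot per mouse, coloured by group and numbered by replicate (the axes do not start at 0). ASAH− Etoh-Dox replicate 3 is highest on both axes, with 1401 CPM of markers and 6684 CPM of lysosomal genes.

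The markers of other liver cells given here had counts in all mice. Their counts at an unadjusted edgeR p under 0.05 stand beside 2.86, 7.29 and 9.19% of all genes in the 3 comparisons. The 12 hepatocyte markers, led by Alb, summed to 103540 to 154730 CPM per mouse. Their medians were -0.21, -0.14 and 0.05. Of these, 2, 4 and 2 had an unadjusted edgeR p under 0.05 in the 3 comparisons, and edgeR called 0, whereas DESeq2 called 1, 3 and 2. The 10 endothelial markers, led by Ptprb, had medians of -0.40, -0.48 and -0.11 with 7, 8 and 1 at an unadjusted p under 0.05 with edgeR and with DESeq2, all lower in the first-named group. EdgeR and DESeq2 called 0 of the 10, and DESeq2 gave 0 of them an adjusted p for ASAH+ Etoh-Dox over ASAH+ Etoh. The 10 stellate cell markers, led by Dcn, had medians of -0.19, 0.10 and 0.29, with 2, 0 and 4 at an unadjusted p under 0.05 with edgeR and with DESeq2. EdgeR called 0 of them, and DESeq2 0 of the 10, 2 and 8 that had an adjusted p.

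The 5 red cell genes, led by Hbb-bs, were lowest in the ASAH+ Etoh mice, with a summed level of 135 to 192 CPM against 215 to 1714 CPM in ASAH− Etoh-Dox and 241 to 871 CPM in ASAH+ Etoh-Dox. Their medians were -0.36, 1.85 and 2.16, with 0, 5 and 5 of 5 at an unadjusted edgeR p under 0.05 and 0 called by edgeR, whereas DESeq2 called 0, 3 and 4 of the 5, 3 and 5 that had an adjusted p. The 6 cholangiocyte genes, led by Spp1, had medians of -0.34, -0.06 and 0.30 with 0 at an unadjusted p under 0.05 with edgeR or DESeq2. The 12 clock genes, led by Tef, had medians of 0.12, -0.04 and -0.19, with 0 at an unadjusted edgeR p under 0.05 (0, 1 and 1 with DESeq2). These 12 genes ran from -0.20 (Per3) to 0.43 (Per1), from -0.40 (Per3) to 2.55 (Npas2) and from -0.46 (Ciart) to 2.67 (Npas2). EdgeR called 0 of them, and DESeq2 0 of the 12, 3 and 11 that had an adjusted p. The part of these differences in the lysosomal genes was not tested.

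A list of 112 other genes of the lysosome (further hydrolases, membrane proteins, the proton pump, sorting factors and regulators) had 111 genes tested. Lamp3 had no counts. With edgeR 0 of 111 passed the adjusted threshold in each comparison. DESeq2 called 0 of the 111, 17 and 99 genes that had an adjusted p from it in the 3 comparisons. In the same order 3, 4 and 7 had an unadjusted edgeR p under 0.05 (1, 5 and 7 with DESeq2), beside 2.86, 7.29 and 9.19% of all genes with edgeR. All genes had median log2 fold changes of -0.00, 0.01 and 0.02, with 7063 above and 7254 below 0, 7589 and 6728, and 7619 and 6698. The 111 genes had medians of -0.04, 0.01 and 0.04. Of them, 37 lay above and 74 below 0 for ASAH+ over ASAH− on Etoh-Dox, and 60 and 51 for ASAH+ Etoh-Dox over ASAH+ Etoh. Between the groups without induction 76 lay above and 35 below 0, and all 7 with an unadjusted edgeR p under 0.05 were higher in ASAH− Etoh-Dox. Those 7 include Cd68 and Laptm5, which with Ctss are also on the list of macrophage markers, whose median was 0.56 in that comparison. The first median was 0.01 without ASAH− Etoh-Dox replicate 3, and the middle median was -0.04 without ASAH+ Etoh-Dox replicate 1 and -0.01 without ASAH+ Etoh replicate 4. With a mouse left out the counts of 3, 4 and 7 ran from 0 (without ASAH− Etoh-Dox replicate 2 or 3 or ASAH+ Etoh-Dox replicate 5) to 4, from 0 (without ASAH+ Etoh replicate 1) to 6, and from 4 (without ASAH− Etoh-Dox replicate 3) to 13 (without ASAH− Etoh-Dox replicate 4). Over all genes tested the counts with a mouse left out ran from 302 to 722, from 759 to 1174 and from 881 to 1853. The most abundant of the other lysosomal genes per kilobase was Laptm4a at 85.8 CPM per kb.

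The 3 smallest p-values of this list for ASAH+ over ASAH− on Etoh-Dox belonged to the cysteine protease Ctsk (-0.71, SE 0.31), Nagpa of the mannose 6-phosphate pathway (-0.22, SE 0.10) and the phospholipase-like Plbd1 (-0.22, SE 0.10), all with an edgeR adjusted p of 0.9997. Ctsk was 0.867, 0.925, 1.102 and 0.644 CPM in the ASAH− Etoh-Dox mice, 0.442, 0.612, 0.398, 0.722 and 0.521 CPM in the ASAH+ Etoh-Dox mice, and 0.230, 0.326, 0.464 and 0.752 CPM in the ASAH+ Etoh mice. Within ASAH+ mice, with over without Dox, they belonged to the ribonuclease Rnaset2b (0.18, SE 0.07; edgeR adjusted p = 0.602), the proton pump subunit Atp6v1f (0.26, SE 0.10; edgeR adjusted p = 0.617) and Lmbrd1, which exports cobalamin (-0.16, SE 0.07; edgeR adjusted p = 0.669). Between the groups without induction they belonged to Ctsk (1.02, SE 0.35; edgeR adjusted p = 0.419), Atp6v1f (0.31, SE 0.11; edgeR adjusted p = 0.440) and Rnaset2b (0.18, SE 0.07; edgeR adjusted p = 0.487). The comparisons that name Atp6v1f and Rnaset2b share the ASAH+ Etoh mice, and those that name Ctsk share the ASAH− Etoh-Dox mice.

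A list of 24 genes was made up mostly of genes of autophagy, which feeds cargo to the lysosome. It also held the lipase genes Pnpla2, Pnpla8 and Lipe. Of the 24 genes on this autophagy list, 23 were tested, and the most abundant was Gabarapl1. EdgeR called 0 of 23 in each comparison, and DESeq2 called 0 of the 23, 10 and 23 that had an adjusted p from it. With either tool 0, 0 and 1 had an unadjusted p under 0.05, beside 2.86, 7.29 and 9.19% of all genes with edgeR. The median log2 fold changes were -0.04, -0.05 and -0.00.

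The genes outside the lysosome lists whose deviations followed the mean of the 35 most closely over the 13 mice were Gpx4 (Spearman's rho 0.956), Mvp (0.940), Slc39a11 (0.940), Arpc1b (0.929) and Cotl1 (0.929). Gpx4 was 101, 153, 163 and 91.0 CPM in the ASAH− Etoh-Dox mice, 168, 115, 107, 114 and 114 CPM in the ASAH+ Etoh-Dox mice, and 109, 81.4, 112 and 116 CPM in the ASAH+ Etoh mice. These genes were picked from all others by this correlation.

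The promoters of the 35 genes were searched for the core of the TFEB element, CACGTG, and for the longer TCACGTGA, which contains it. Each motif is its own reverse complement, so that a match lies on both strands. RefSeq windows on GRCm38.p6, from 250 bases before to 50 bases after the start, were matched for 31 of the 35 genes. CACGTG occurred in 12 of the 31 genes (38.7%) and in 8.09% of all 27025 genes with a window, or in 32.4% of 37 windows against 7.15% of all 32851 windows. TCACGTGA occurred in 5 of the 31 genes (16.1%) and in 1.12% of all genes (0.974% of windows). Among the other lysosomal genes CACGTG occurred in 22 of 83 (26.5%), among the genes of the autophagy list in 5 of 19 (26.3%) and among the macrophage markers in 0 of 17. Ctsb, Ctsh, Galns and Npc1 were not matched.

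The 250 bases before the start are shown for 4 genes, with CACGTG in capitals. Lamp1 and Gla have the motif. Ctsc and Lamp2 are the genes of the 35 whose groups did not overlap between ASAH− Etoh-Dox and ASAH+ Etoh. For Ctsc the same held between ASAH+ and ASAH− on Etoh-Dox.
Lamp1 (chr8:13158911-13159160, plus strand): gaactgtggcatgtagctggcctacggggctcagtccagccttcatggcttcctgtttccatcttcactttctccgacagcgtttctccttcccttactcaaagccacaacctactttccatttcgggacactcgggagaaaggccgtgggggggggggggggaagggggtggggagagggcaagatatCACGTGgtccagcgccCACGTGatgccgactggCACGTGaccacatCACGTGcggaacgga
Gla (chrX:134601006-134601255, minus strand): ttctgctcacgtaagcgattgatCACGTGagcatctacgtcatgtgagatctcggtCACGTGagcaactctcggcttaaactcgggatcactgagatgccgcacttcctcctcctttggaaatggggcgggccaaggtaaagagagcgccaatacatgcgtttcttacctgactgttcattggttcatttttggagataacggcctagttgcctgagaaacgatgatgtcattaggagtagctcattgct
Ctsc (chr7:88277835-88278084, plus strand): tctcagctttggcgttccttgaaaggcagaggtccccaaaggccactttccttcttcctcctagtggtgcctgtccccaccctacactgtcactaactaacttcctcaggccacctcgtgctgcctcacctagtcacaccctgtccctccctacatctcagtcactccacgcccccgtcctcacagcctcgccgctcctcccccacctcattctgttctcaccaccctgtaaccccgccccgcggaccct
Lamp2 (chrX:38456461-38456710, minus strand): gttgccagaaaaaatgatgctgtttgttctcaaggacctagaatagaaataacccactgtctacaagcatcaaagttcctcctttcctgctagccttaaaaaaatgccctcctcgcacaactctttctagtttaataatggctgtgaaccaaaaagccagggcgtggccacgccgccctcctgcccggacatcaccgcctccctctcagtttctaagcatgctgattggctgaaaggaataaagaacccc
The 4 matches of Lamp1 begin 61, 45, 28 and 15 bases before the start, and those of Gla begin 227 and 194 bases before it and are both part of TCACGTGA. The windows of Ctsc and Lamp2 hold 0 matches. A match describes the letters of the window and was not tested as a binding site.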

How the data were processed

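The authors mapped reads with Salmon to GENCODE transcripts on GRCm38.p6 and summed them to genes with tximport, and the deposited table holds these expected counts, rounded to whole numbers by the authors and not scaled. Symbols came from GENCODE on GRCm38 (53355 of 53392 identifiers matched). In R 4.3.3, edgeR 4.0.16 fitted 3 group means over all 13 mice by quasi-likelihood with robust dispersion, after its own count filter and TMM scaling. P-values were adjusted by Benjamini-Hochberg over 14317 genes, with a threshold of 0.1. For single genes, exact permutation tests (two-sided) over mice used log2 CPM with a prior count of 2. The edgeR and DESeq2 tests were first run on simulated counts, for ASAH+ over ASAH− on Etoh-Dox. DESeq2 1.42.0, other filters, scalings and fits, and leaving out each mouse in turn were the alternatives.

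Members and lists were chosen with earlier results of these data known. Values per mouse are given for Asah1, Lamp1, Lamp2, Tfeb and Ctsb, for members past the adjusted threshold, and in each comparison for the 4 members with the smallest p and those with the largest rise and fall, and of the other lysosomal genes the 3 with the smallest p are named. Per-mouse values of Ctsk and Gpx4 were added after their values were seen. Replicates were different libraries, since the chi-square of their counts per degree of freedom was 18.4 to 103.7 over 22 pairs.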

Additional observations from a re-analysis of the deposited data

Results flagged for a closer look

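In each group of 4 or 5 mice, the gap of the highest or lowest mouse to its neighbour was divided by the range of the group (Dixon's ratio), for the 35 genes and for sums of gene lists. A mouse stood apart in 5 of 114 groups, and chance alone sets a mouse apart in about 1 in 20 groups. In ASAH+ Etoh-Dox replicate 1, which has the deepest library (35358711 counts), Psap was 726.9 CPM (530.3 to 580.2 in the other mice of the group), Ctsz was 277.0 CPM (166.2 to 184.9) and the sum of the 35 genes was 6594 CPM (5562 to 5827). The shallowest library (17819486 counts), ASAH+ Etoh replicate 4, was likewise the highest of its group for 19 of the 35 genes. In ASAH+ Etoh replicate 2, Npc2 was 67.26 CPM (71.2 to 71.96). In ASAH− Etoh-Dox replicate 1, Sgsh was 5.616 CPM (6.734 to 6.937). What sets the flagged mice apart was not tested.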

How the results depend on the processing

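The count of the 35 genes past the adjusted threshold was 0 in each comparison under edgeR and all its alternatives, including each mouse left out in turn, and it was 0 with DESeq2 except for Ctsc between ASAH− Etoh-Dox and ASAH+ Etoh (1 gene, log2 fold change -0.39). The counts over all genes, 2 in each comparison, depended more on the processing. For ASAH+ over ASAH− on Etoh-Dox there were 12 with DESeq2, 1 with the 2 groups alone, 1 with Asah1 left out of the totals and 1 or 2 with a mouse left out. In ASAH+ mice, with over without Dox, there were 98 with DESeq2, 4 without a count filter, 1 with Asah1 left out and 2 to 8 with a mouse left out (8 without ASAH+ Etoh replicate 2). For ASAH− Etoh-Dox over ASAH+ Etoh there were 149 with DESeq2, 0 with the 2 groups alone, 1 with Dbp over Arntl (log2) as a covariate and 0 to 2 with a mouse left out. With Asah1 left out, Asah1 itself is no longer tested. The cause of the other changes was not tested.

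Small log2 fold changes of named genes changed sign. With Dbp over Arntl as the covariate, Lamp2 was -0.000276 for ASAH+ over ASAH− on Etoh-Dox. With a mouse left out, the values of that comparison ran from -0.0145 to 0.151 for Lamp1, from -0.0250 to 0.0483 for Lamp2, from -0.109 to 0.145 for Tfeb and from -0.0697 to 0.110 for Ctsb. In ASAH+ mice, with over without Dox, they ran from -0.0533 to 0.0626 for Lamp1 and from -0.0331 to 0.0713 for Ctsb. For ASAH− Etoh-Dox over ASAH+ Etoh they ran from -0.119 to 0.0211 for Lamp1 and from -0.0817 to 0.0981 for Ctsb. Over the 9, 8 and 9 genes named by rule for each comparison, 13 of 197, 4 of 175 and 5 of 197 values changed sign.

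The labels give no pairing of the mice by replicate number. The deviations of same-numbered mice correlated with r from -0.265 to 0.190 (mean -0.046, 12 pairs), against a mean of 0.013 over 44 other pairs. With the replicate number as a block, 1, 2 and 1 genes passed in the 3 comparisons, 0 of them among the 35, and Tfeb was -0.0555 for ASAH+ over ASAH− on Etoh-Dox.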
